A study of Mus musculus with 6 samples.

Results

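Cytoplasmic actin makes the filaments under the membrane of every cell, and the genes described here are its 2 cytoplasmic isoforms and the proteins that hold, recycle, coat or pull on them. The set held 10 genes of the 54532 identifiers in the tables: the actins Actg1 and Actb, the monomer-binding genes Pfn1, Tmsb4x and Tmsb10, the severing factor gene Cfl1, the tropomyosins Tpm1 and Tpm3, and the myosin light chains Myl9 and Myl6. The list was selected on the FPKM of Actg1, whose difference between the groups stood out in the same 6 libraries, with related genes added around it. Differences of members between the groups are therefore given as a description: their SEs and 95% intervals come from the fit across all genes, no p is given for a member, and a call of Actg1 supports nothing. Symbols were matched to identifiers through GENCODE vM21. All 10 were tested, among 11672 genes whose mean over the libraries reached 0.5 FPKM (fragments per kilobase of exon, scaled to library size).

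RNA of whole mouse liver was sequenced in 6 libraries, 3 labelled wild type (WT) and 3 labelled Arid2 LKO. The sample titles name no treatment or diet for either group. ARID2 is a subunit of PBAF, a chromatin remodelling complex, and the series title sets the comparison in the context of fat storage in the liver and the kinase JAK2. The labels do not spell out LKO, and the sources used here do not give the allele, the Cre driver, the sex, the age or the number of animals. Since no label ties a library to an animal of its own, the p-values reflect only how far these samples vary, and that variation may be technical.

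Actin exists as single monomers and as polymerised filaments, and cells hold both forms in balance. Thymosins keep monomers from polymerising, profilin loads them for growth at filament ends, cofilin severs old filaments, tropomyosins coat filaments, and myosin light chains belong to the motor that pulls on them. The monomer pool also controls the coactivators of SRF (MRTF proteins), which act at a DNA sequence called the CArG box, and actin genes themselves are among the known SRF targets. β-Actin is in addition a subunit of BAF and PBAF. In liver, cortical actin lines the hepatocyte membrane and is densest around bile canaliculi.

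The libraries held between 13947787 and 18159284 recovered reads, and 3 reads on a 1 kb transcript corresponded to 0.156 to 0.236 FPKM, counting error alone considered. The replicate 1 library of both groups stood apart: 2003 and 2368 genes had 1 to 5 reads there, against 3913 to 4263 in the other 4 libraries. Mitochondrial genes took 10.2% to 20.7% of reads in WT and 4.76% to 27.6% in LKO. Arid2 itself did not separate the groups, with 2.65, 1.74 and 1.79 FPKM in WT and 2.55, 1.33 and 2.04 FPKM in the libraries labelled LKO (log2 difference -0.05 ± 0.24 SE, adjusted p = 0.974 in limma). Whole-gene values need not show a deletion of some exons, so they do not check the labels, and WT and LKO below mean the libraries so labelled. Albumin and other hepatocyte markers summed to 43537 to 58049 FPKM in WT and 47309 to 63766 FPKM in LKO.

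Actg1 encodes γ-actin, the less abundant cytoplasmic actin of most tissues (ENSMUSG00000062825, chr11:120345690-120348542, minus strand, mm10). WT replicates 1 to 3 had 10.7, 10.2 and 10.3 FPKM, with 550, 476 and 426 reads behind them. LKO replicates 1 to 3 had 93.4, 66.4 and 76.3 FPKM, with 3154, 2757 and 3854 reads behind them. Every LKO library lay far above every WT library, and no member had a wider gap between its groups. The means were 10.4 ± 0.299 FPKM in WT and 78.7 ± 13.7 FPKM in LKO (SD, n = 3 each), a ratio of 7.57. On the log2(FPKM + 1) scale used for all differences here, which understates changes of low genes, the difference was 2.79 ± 0.26 (SE, limma, 95% interval 2.18 to 3.40). The 3 WT values were closer together than those of any other member, with a coefficient of variation of 2.87% beside a counting error of 4.55% per library. In LKO the coefficient of variation was 17.4%, beside a counting error of 1.75%. Leaving out libraries and changing scaling, pseudocount or filter in 15 alternatives kept the difference between 2.65 and 2.91.

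Actb encodes β-actin, the main cytoplasmic actin, which many laboratories use as a reference gene (ENSMUSG00000029580, chr5:142903115-142906754, minus strand). It stood at 163.5, 103.6 and 170.2 FPKM in WT and at 212.9, 181.7 and 130.1 FPKM in LKO. The groups overlapped, since LKO replicate 3 lay below WT replicates 1 and 3. The means were 146 ± 36.7 and 175 ± 41.8 FPKM (SD, n = 3 each), and the log2 difference was 0.27 ± 0.35 (SE, 95% interval -0.56 to 1.09). The interval leaves room for a change in either direction, so it does not show that Actb was equal in the groups.

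The coding sequences of the 2 isoforms are shown because they bear on whether short reads can tell the genes apart. Both have 1128 coding bases and differ at 128 of them (88.7% identity), of which 120 (93.8%) are at the last position of a codon. The opening 60 coding bases are given from the GENCODE vM21 transcripts Actg1-202 and Actb-201, with the 9 bases that differ between them in capitals.
Actg1: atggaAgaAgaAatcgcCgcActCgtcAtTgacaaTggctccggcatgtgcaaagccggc
Actb: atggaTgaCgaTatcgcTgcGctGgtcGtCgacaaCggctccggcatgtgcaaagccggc
Of the 1903 stretches of 50 bases along the Actg1 transcript, 30 occurred unchanged in Actb. Many more were shared with processed pseudogenes: 1079 stretches (56.7%) occurred in at least 1 of 22 other genes, among them 973 in Gm12715 and 677 in Gm8399. These copies drew few reads. Over the 12 pseudogene copies of Actg1 there were 6, 9 and 7 reads in WT and 39, 30 and 55 reads in LKO, and 8 of the 12 were listed at 0 in all libraries. Gm12715 held most of these reads, with 5, 6 and 6 in WT and 34, 20 and 44 in LKO, and its LKO libraries too all lay above the WT libraries. The sources used here do not say how reads that match several genes were counted.

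With β-actin and γ-actin taken as a pool, Actg1 made up 6.16%, 8.95% and 5.68% of their summed FPKM in WT replicates 1 to 3. It made up 30.5%, 26.7% and 37.0% in LKO replicates 1 to 3. The ratio of Actb to Actg1 was accordingly 15.2, 10.2 and 16.6 in WT and 2.28, 2.74 and 1.70 in LKO. The share of Actg1 was thus highest in the LKO library whose Actb was lowest, and the groups did not overlap in either quantity. The summed level of both genes was 174, 114 and 181 FPKM in WT and 306, 248 and 206 FPKM in LKO, with means of 156 ± 36.9 and 254 ± 50.2 FPKM (SD, n = 3 each). Of the difference between those means, Actg1 gave 68.3 FPKM and Actb 29.1 FPKM. A ratio within a library does not depend on how that library was scaled, and the log2 difference of the Actg1 to Actb ratio, taken on the log2(FPKM + 1) scale, was 2.53, with a range of 2.34 to 2.74 over the 15 alternatives. Stretches shared with other genes made up 56.7% of the Actg1 transcript and 14.2% of the Actb transcript. How reads on them were counted is not stated, so the shares, ratios and sums, and the order of members by level below, may depend on it. The stacked plot of both actins by library shows the shares.

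**Figure D1:**
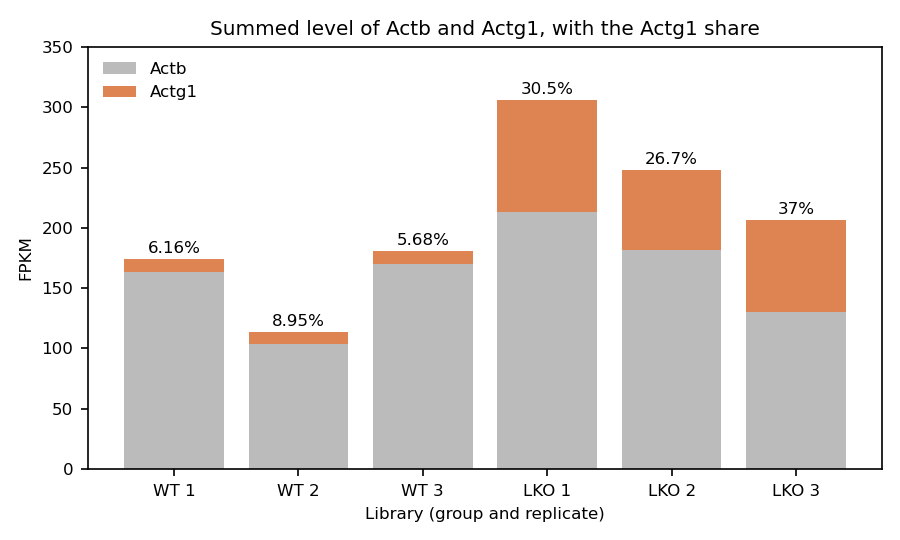
Summed FPKM of Actb (grey) and Actg1 (orange) in each of the 6 libraries, with the percentage of the sum that Actg1 made up printed above each bar. The share lies between 5.68% and 8.95% in the 3 WT libraries and between 26.7% and 37.0% in the 3 LKO libraries, while the grey bars of the groups overlap.

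Among the monomer-binding genes, none had groups that separated. Pfn1 encodes profilin 1 (ENSMUSG00000018293, chr11:70651850-70654644, minus strand), and it lies on the chromosome of Actg1. It stood at 91.6, 96.3 and 128.8 FPKM in WT and at 104.3, 100.6 and 66.1 FPKM in LKO. WT replicate 3 was the highest and LKO replicate 3 the lowest of the 6 libraries, and the other 4 lay between. The log2 difference was -0.23 ± 0.32 (SE, 95% interval -0.99 to 0.52).

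Tmsb4x encodes thymosin β4, the main monomer-sequestering peptide of many cells (ENSMUSG00000049775, chrX:167207093-167209315, minus strand). It stood at 51.0, 39.2 and 38.9 FPKM in WT and at 42.7, 29.6 and 38.5 FPKM in LKO, with a log2 difference of -0.22 ± 0.29 (SE, 95% interval -0.88 to 0.45). Its relative Tmsb10, thymosin β10 (ENSMUSG00000079523, chr6:72957347-72958748, minus strand), was uneven in LKO. It stood at 9.67, 4.68 and 7.07 FPKM in WT and at 18.9, 5.82 and 2.85 FPKM in LKO. A single library, LKO replicate 1, lay above all others, and the coefficient of variation in LKO was 93.1%. The log2 difference of 0.03 ± 0.59 (SE, 95% interval -1.34 to 1.40) turned negative in 8 of the 15 alternatives, to -0.62 without LKO replicate 1.

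Cfl1 encodes cofilin 1, which severs filaments and frees monomers (ENSMUSG00000056201, chr19:5490455-5495201, plus strand). It stood at 63.0, 74.4 and 89.2 FPKM in WT and at 81.4, 87.6 and 57.9 FPKM in LKO. The means were 75.5 ± 13.1 and 75.6 ± 15.7 FPKM (SD, n = 3 each), with a log2 difference of -0.01 ± 0.31 (SE, 95% interval -0.73 to 0.71). The 2 groups covered nearly the same range, and its sign turned positive when either replicate 3 library was left out.

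The tropomyosins line the groove of the filament and set which myosins and severing factors reach it. By mean level, 48.7% of all tested genes lay below Tpm1 and 54.3% below Tpm3. Tpm1 (ENSMUSG00000032366, chr9:67022590-67049406, minus strand) stood at 3.37, 2.64 and 2.06 FPKM in WT and at 5.12, 3.97 and 2.72 FPKM in LKO. Only LKO replicate 3 lay within the WT range, and the log2 difference was 0.41 ± 0.27 (SE, 95% interval -0.22 to 1.03). Tpm3 (ENSMUSG00000027940, chr3:90072649-90100902, plus strand) stood at 6.48, 2.23 and 1.42 FPKM in WT and at 5.42, 3.49 and 5.11 FPKM in LKO. WT replicate 1 was the highest of the 6 libraries while the other 2 WT libraries were the lowest, and the log2 difference was 0.53 ± 0.43 (SE, 95% interval -0.47 to 1.53).

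The values of Tpm3 are uncertain because reads can be split with a near-identical gene. Tpm3-rs7 shares 1363 of the 2184 stretches of 50 bases along the Tpm3 transcript (62.4%). It stood at 0.966, 0.794 and 16.2 FPKM in WT and at 0.477, 9.44 and 9.37 FPKM in LKO. Of the reads on the pair, Tpm3-rs7 took 5%, 11.2% and 80.1% in WT and 3.01%, 48.8% and 39.3% in LKO, so the split between the 2 copies differed from library to library within each group. The reads of both summed to 800, 269 and 679 in WT and to 432, 649 and 973 in LKO. Shared stretches were also found for Myl6 (53.2%), Tmsb10 (43.5%), Actb (14.2%) and Cfl1 (9.11%), and for Pfn1, Tmsb4x, Tpm1 and Myl9 there were 0.

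Myl9 encodes a regulatory light chain found mainly with smooth muscle and non-muscle myosin II (ENSMUSG00000067818, chr2:156775420-156781658, plus strand). It stood at 1.52, 2.05 and 1.21 FPKM in WT, from 34, 42 and 22 reads, and at 1.15, 0.881 and 0.997 FPKM in LKO, from 17, 16 and 22 reads. Every LKO library lay below every WT library, by a margin as small as that between WT replicate 3 and LKO replicate 1. Counting error alone was 17.5% per WT library and 23.4% per LKO library, and the log2 difference was -0.36 ± 0.20 (SE, 95% interval -0.83 to 0.12). Myl6, the essential light chain of the same motor (ENSMUSG00000090841, chr10:128490860-128494145, minus strand), was far more abundant. It stood at 27.3, 36.4 and 50.1 FPKM in WT and at 67.5, 42.3 and 27.4 FPKM in LKO. The groups overlapped across nearly their whole range, and the log2 difference of 0.21 ± 0.41 (SE, 95% interval -0.74 to 1.17) turned to -0.11 without LKO replicate 1.

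**Figure D2:**
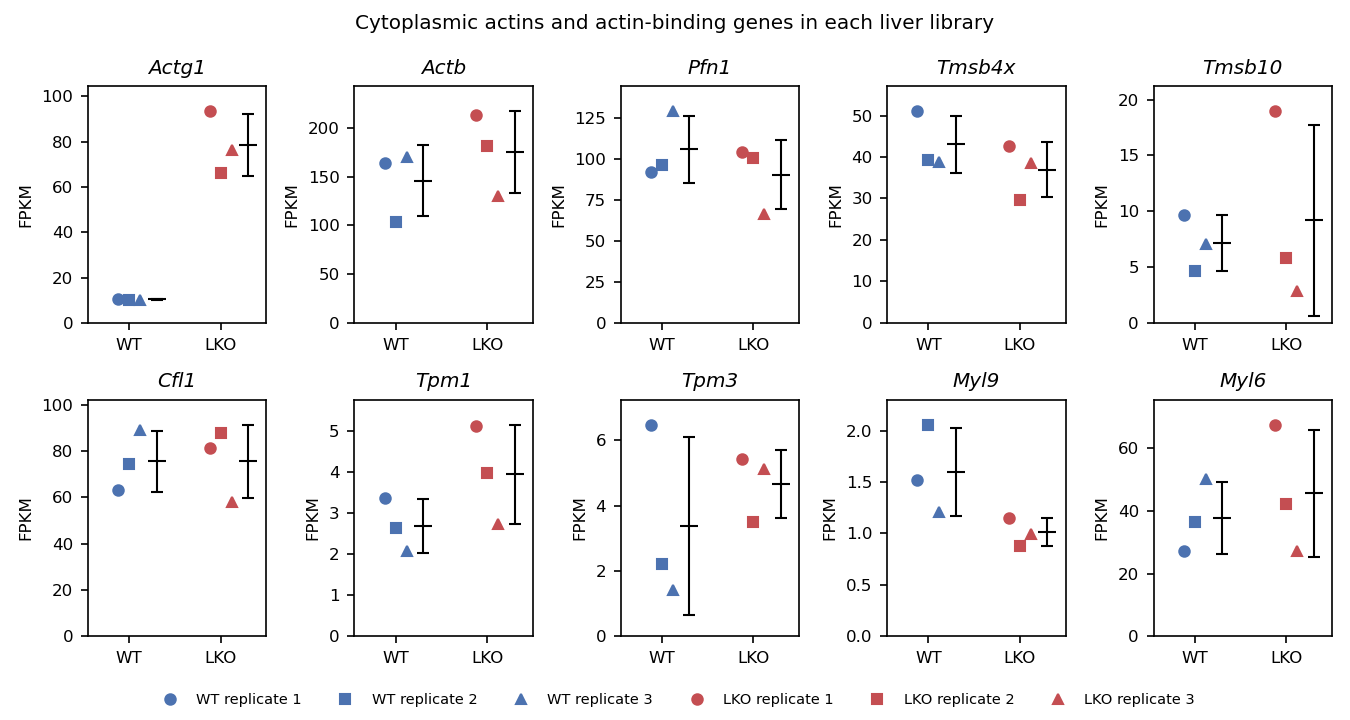
FPKM of the 10 genes in each library, with WT libraries in blue, LKO libraries in red, a marker shape per replicate number, and the mean with its SD (n = 3) beside each group. Each panel has its own linear axis from 0. The LKO libraries lie above the WT libraries for Actg1 and below them for Myl9, and the groups overlap in the other 8 panels.

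The members thus did not move as a block. Of the 10, Actg1 passed an adjusted p of 0.05 in limma, where 0.00857% of all tested genes were called higher, 0.0343% lower and 0.0428% either way. The share called higher is 1 gene, Actg1 itself. Groups did not overlap for 2 of the 10, Actg1 above and Myl9 below, where 934 of the 11672 tested genes lay above, 7.42% below and 15.4% either way. Leaving out any single library other than LKO replicate 3 ended the call of Actg1. As Actg1 was chosen for this difference, nothing is read from those counts. The difference was above 0 for Actg1, Actb, Tpm1 and Tpm3 and below 0 for Pfn1, Tmsb4x and Myl9 in the main analysis and each of the 15 alternatives, and it changed sign in at least 1 alternative for Tmsb10, Cfl1 and Myl6. The nearest to Actg1 was Tpm3, at 0.53 against 2.79 on the log2 scale. The size and sign for Tpm3 may depend on how reads were split with Tpm3-rs7. The plot of differences shows the 95% interval of Actg1 as the single one that does not reach 0.

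**Figure D3:**
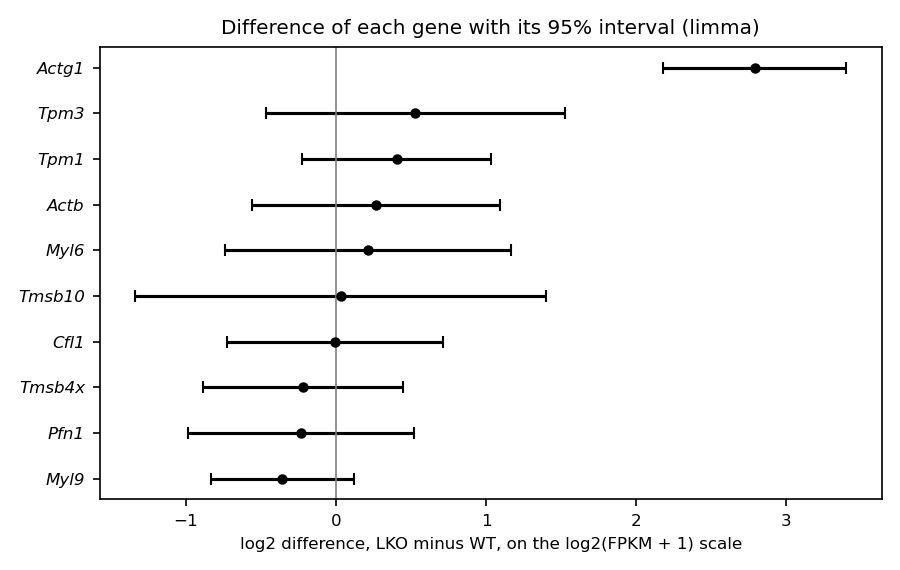
Difference of each gene, LKO minus WT, on the log2(FPKM + 1) scale with its 95% interval from limma, ordered by size. The interval of Actg1 runs from 2.18 to 3.40, and the intervals of the other 9 genes include 0. Actg1 was chosen for this difference, so its place is a description.

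The place of Actg1 among the cytoskeletal genes changed with its level, read per kilobase in FPKM. Ordered by mean level, WT liver had Actb, Pfn1, Cfl1, Tmsb4x, Myl6, Actg1, Tmsb10, Tpm3, Tpm1 and Myl9. The ranges of neighbours overlapped between Actb and Pfn1, Tmsb4x and Myl6, Tmsb10 and Tpm3, and Tpm3 and Tpm1. In LKO the order was Actb, Pfn1, Actg1, Cfl1, Myl6, Tmsb4x, Tmsb10, Tpm3, Tpm1 and Myl9, and the ranges separated only between Actb and Pfn1, Tmsb4x and Tmsb10, and Tpm1 and Myl9. Actg1 ranked 6 of 10 in each WT library and 3, 4 and 2 in LKO replicates 1 to 3, while Actb ranked 1 in all 6. The order between genes also depends on the length that reads are divided by. Merged exons spanned 2679 bases for Actb, 2405 for Pfn1 and 3187 for Myl6. Their transcripts examined here had 1920, 861 and 665 bases. The ranks are thus those of FPKM and need not be those of transcript number. Among all tested genes, 75.9% to 79.2% lay below Actg1 in the WT libraries and 93.8% to 96.1% in the LKO libraries.

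Promoter sequence was examined because actin genes are known SRF targets. RefSeq promoters (GRCm38.p6, from 250 bases before to 50 bases after a start site) were found for 9 of the 10 members, in 13 windows. The member without one was Actb, so its promoter was not examined for any motif. A CArG box on either strand was present in 3 of the 9, Actg1, Myl9 and Myl6, against 488 of 27025 genes in the table (1.81%) and 535 of 32851 windows (1.63%). The 3 stretches are shown to place the box, which is in capitals. They read 5′ to 3′ on the strand of the gene: Actg1 at chr11:120348551-120348610 (minus strand), Myl9 at chr2:156775278-156775337 (plus strand), neither in an annotated exon, and Myl6 at chr10:128493040-128493069 (minus strand), inside an annotated exon.
Actg1: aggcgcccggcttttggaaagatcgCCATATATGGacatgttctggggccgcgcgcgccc
Myl9: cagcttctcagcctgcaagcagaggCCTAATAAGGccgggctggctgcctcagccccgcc
Myl6: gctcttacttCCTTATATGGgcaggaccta
Counted from the RefSeq start site, the box spans -90 to -81 in Actg1, -161 to -152 in Myl9 and -50 to -41 at the second start of Myl6. The 3 genes with a box went different ways in level: Actg1 lay above in LKO, Myl9 lay below, and Myl6 overlapped. A CCAAT motif on either strand was found in 4 of the 9, Actg1 (-120 to -116), Cfl1 (-146 to -142), Tpm1 (-70 to -66) and the first start of Myl6 (-42 to -38), against 41.1% of genes and 37.4% of windows. The STAT motif TTCNNNGAA was found in 0 of the 9 against 9.55% of genes and 8.30% of windows, and TATAAA in 0 of the 9 against 15.7% of genes and 13.6% of windows. A match is a stretch of letters and not a measured site, and no match says only that the letters are not in these windows.

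**Figure D4:**
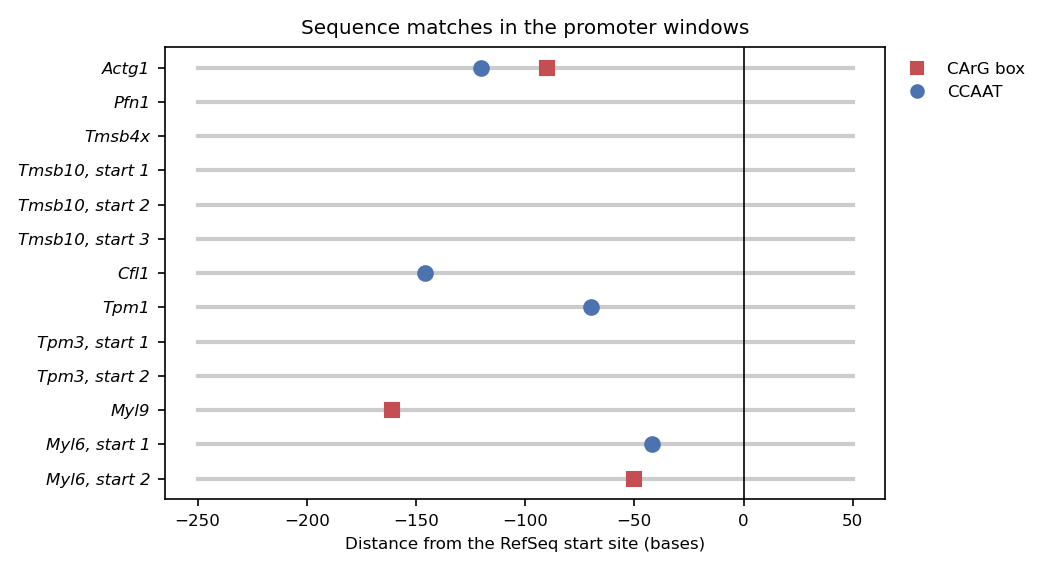
Position of CArG boxes (red squares) and CCAAT motifs (blue circles) in the RefSeq promoter windows of 9 member genes, as the distance in bases of the motif's outer end from the start site, with a grey line for each window and a line at 0 for the start. Genes with several start sites have a line for each, and the 3 CArG boxes lie in Actg1, Myl9 and the second start of Myl6. Actb is absent because no promoter was available for it.

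The genes next to Actg1 on chromosome 11 did not share its pattern. Bahcc1 and Slc38a10 on the lower side and Faap100 and Nploc4 on the higher side, the nearest tested protein-coding genes, lay 53394, 194344, 20513 and 31828 bases away. Their log2 differences were -0.40, 0.40, -0.31 and 0.49, with adjusted p of 0.725, 0.855, 0.777 and 0.699 in limma. All 4 had overlapping groups.

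Genes with a pattern like that of Actg1 were sought among 4361 other protein-coding genes that averaged 5 FPKM or more, by the root mean square difference between log2(FPKM + 1) values centred on each gene's mean over the 6 libraries. The closest 8 were Btg2 (0.47), Maff (0.52), Hspb1 (0.53), Acot2 (0.61), Itih4 (0.66), Abhd2 (0.66), Zfp36l2 (0.69) and Srxn1 (0.71), where the median of all candidates was 1.42. Btg2, an antiproliferative immediate early gene, stood at 4.77, 2.49 and 5.51 FPKM in WT and at 77.9, 23.0 and 41.8 FPKM in LKO. Maff stood at 1.66, 4.14 and 4.25 FPKM in WT and at 18.5, 12.1 and 18.3 FPKM in LKO. Hspb1, a small heat shock protein known to bind actin, stood at 6.44, 14.2 and 9.87 FPKM in WT and at 48.4, 60.4 and 35.7 FPKM in LKO. In all 8 the LKO libraries lay above the WT libraries, which the measure selects for. The other 9 members were not near: the closest was Tpm1 at 1.21, with 13.5% of candidates closer to Actg1, followed by Tpm3 at 1.23 and Actb at 1.30, and the farthest was Myl9 at 1.58.

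The wider actin machinery was read from 10 lists of 113 tested genes, counted once each. In limma 0 of the 113 passed an adjusted p of 0.05 and 13 had an unadjusted p under 0.05, 11 of them higher in LKO and 2 lower (11.5%, against 9.22% of all tested genes, 4.28% higher and 4.93% lower). voom on the recovered reads also called 0. On simulated data the limma fit called 7.04% of genes changed 2-fold in FPKM + 1, so the lack of calls does not show that these genes were unchanged. Differences were above 0 for 83 of the 113 (73.5%, against 54.1% of all genes), with a median of 0.17 beside 0.03. Scaled to the summed FPKM of nuclear protein-coding genes, 61.9% against 45.1% were above 0 and the medians were 0.08 and -0.04. The median of the 113 was 0.10 without LKO replicate 3 and 0.28 without LKO replicate 1. Every LKO library lay above every WT library for 23 genes and below for 2, or 22.1% against the 15.4% of all genes given above. The genes of a list vary together, and no test was made of the lists as sets.

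Non-muscle myosin II and tropomyosin genes outside the member list had 8 of 12 differences above 0 and a median of 0.27, which was 0.06 without LKO replicate 3. Myh9, the heavy chain of non-muscle myosin IIA, stood at 5.28, 5.57 and 4.14 FPKM in WT and at 11.9, 15.8 and 8.74 FPKM in LKO (log2 difference 1.10 ± 0.28 SE, limma adjusted p = 0.290). Tpm2 stood at 0.267, 1.78 and 2.73 FPKM in WT and at 5.11, 5.06 and 2.95 FPKM in LKO (adjusted p = 0.454 in limma). Mylk, the kinase that activates myosin light chains, went the other way, at 9.63, 6.53 and 7.05 FPKM in WT and 5.06, 3.90 and 3.74 FPKM in LKO (log2 difference -0.73 ± 0.25 SE, limma adjusted p = 0.425). The groups separated for each of these 3 genes, which were named for the smallest p of the list, and 0 of the 12 passed the test. In the whole list every LKO library lay above for 3 of the 12 genes and below for 1, where 15.4% of all tested genes had separated groups. At an unadjusted p under 0.05 there were 3 higher and 1 lower.

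Genes that link filaments to the membrane and to adhesions had 12 of 15 differences above 0 and a median of 0.15, with 0 calls and 3 higher and 1 lower at an unadjusted p under 0.05. The median was 0.08 without LKO replicate 3, 0.23 without LKO replicate 1 and 0.25 without WT replicate 2. Pxn (paxillin) stood at 3.77 ± 0.594 and 8.39 ± 3.02 FPKM (SD, n = 3 each; limma adjusted p = 0.375). Lims1 stood at 1.37 ± 0.218 and 3.16 ± 0.779 FPKM (limma adjusted p = 0.324), and its partner in the ILK complex Parva at 6.13 ± 0.767 and 3.27 ± 1.19 FPKM (limma adjusted p = 0.451). These 2 genes of that complex thus had separated groups in opposite directions, where 15.4% of all tested genes had separated groups. The FPKM listed for Ilk itself were too low to be tested, with means of 0.00691 FPKM in WT and 0.111 FPKM in LKO. As the strand setting is not stated, these values need not be the level of the gene.

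Nucleation genes, which start new filaments or branches, had 17 of 23 differences above 0 and a median of 0.19, which was 0.06 without WT replicate 1 or LKO replicate 2 and 0.11 without LKO replicate 3, with 1 at an unadjusted p under 0.05. The gene with that p was Wasf2, an activator of the Arp2/3 complex, at 2.63 ± 0.222 and 4.28 ± 0.430 FPKM (SD, n = 3 each; limma adjusted p = 0.482). Nckap1 of the same regulatory complex stood at 14.4 ± 1.38 and 19.8 ± 2.48 FPKM (adjusted p = 0.660 in limma), and the formin gene Diaph1 at 5.45 ± 0.768 and 7.86 ± 1.17 FPKM (adjusted p = 0.621 in limma). All 3 had LKO libraries above the WT libraries, but they were named for the smallest p of the list, which favours separated groups. In the whole list every LKO library lay above for 4 of the 23 genes and below for 0. Of all tested genes 15.4% had separated groups. The Arp2/3 subunit gene Actr2 stood at 17.8 ± 0.690 and 18.1 ± 0.975 FPKM, values chosen for display after they were seen.

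Turnover genes outside the member list had 9 of 13 differences above 0 and a median of 0.10. Each library left out moved that median by over 1.5 times, from 0.0097 without LKO replicate 3 to 0.28 without LKO replicate 1. The single gene at an unadjusted p under 0.05 was Cotl1, a coactosin that binds filaments, at 3.72 ± 1.54 and 8.74 ± 2.67 FPKM (SD, n = 3 each; log2 difference 1.06 ± 0.35 SE, limma adjusted p = 0.418). Wdr1, a cofactor of cofilin, stood at 2.79 ± 0.454 and 4.34 ± 1.08 FPKM (limma adjusted p = 0.620), and Twf2 at 0.928 ± 0.295 and 1.85 ± 0.928 FPKM (limma adjusted p = 0.621). For all 3 the LKO libraries lay above the WT libraries, but they too were named for the smallest p of their list. In the whole list every LKO library lay above for 4 of the 13 genes and below for 0, where 15.4% of all tested genes had separated groups.

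Capping and severing genes had 6 of 8 differences above 0 (median 0.24) and crosslinking genes 10 of 14 (median 0.14), with 0 at an unadjusted p under 0.05 in both lists. Without LKO replicate 1 these medians were 0.46 and 0.23, and without WT replicate 1 the crosslinking median was 0.25. Capza1, which caps filament ends, stood at 2.04 ± 0.325 and 3.17 ± 0.572 FPKM (SD, n = 3 each; limma adjusted p = 0.588). Gsn (gelsolin) had means of 2.61 and 4.20 FPKM and Tmod3, a pointed-end cap, 0.776 and 1.15 FPKM, both with overlapping groups. Among the crosslinkers, Tagln2 stood at 2.77 ± 0.979 and 5.08 ± 1.66 FPKM (limma adjusted p = 0.574) and Sptan1, an α-spectrin, at 4.55 ± 0.387 and 6.59 ± 1.26 FPKM (limma adjusted p = 0.631). Plec (plectin) had means of 5.62 and 9.84 FPKM with overlapping groups.

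The list of SRF, its coactivators and its targets had 8 of 13 differences above 0 and a median of 0.10. That median was 0.26 without WT replicate 1 or without LKO replicate 2, 0.16 without LKO replicate 1 and 0.15 without WT replicate 2. The 8 above 0 were Srf, its coactivators Mrtfa and Mrtfb, and the targets Egr1, Fos, Junb, Vcl (0.10) and Zyx (0.18). The other 5 targets were below 0: Ccn1 (-0.03), Ccn2 (-0.34), Fhl1 (-0.25), Acta2 (-0.21) and Filip1l (-0.44). Srf stood at 2.28, 3.89 and 2.26 FPKM in WT and at 3.48, 4.40 and 6.73 FPKM in LKO, with overlapping groups (limma adjusted p = 0.603), and Mrtfb had means of 2.12 and 3.21 FPKM (limma adjusted p = 0.646). Junb, the list's single gene at an unadjusted p under 0.05 and also an immediate early gene with other inputs than SRF, stood at 33.5, 38.1 and 44.6 FPKM in WT and 125.3, 49.4 and 100.3 FPKM in LKO (limma adjusted p = 0.441). The list's 2 largest differences, Egr1 (1.76) and Fos (1.57), had overlapping groups, with Egr1 at 8.02, 2.65 and 44.3 FPKM in WT and 51.6, 7.97 and 122.7 FPKM in LKO. Both genes are named after their values were seen.

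Actin-related proteins, several of which are remodelling complex or dynactin subunits, had 5 of 7 differences above 0 and a median of 0.13, which was 0.07 without LKO replicate 2 or without LKO replicate 3. The 3 with the smallest p, Actr10, Actr8 and Actr1a, had log2 differences of 0.23, 0.15 and 0.16 and overlapping groups. Of the muscle-type and other actin isoforms, Acta1, Actc1 and Actbl2 were listed at 0 in all 6 libraries. Acta2, smooth muscle α-actin, stood at 1.54, 0.319 and 1.87 FPKM in WT and at 1.81, 0.826 and 0.207 FPKM in LKO. Its log2 difference was -0.21 ± 0.40 (SE, limma), and Actg2 was too low to be tested.

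**Figure D5:**
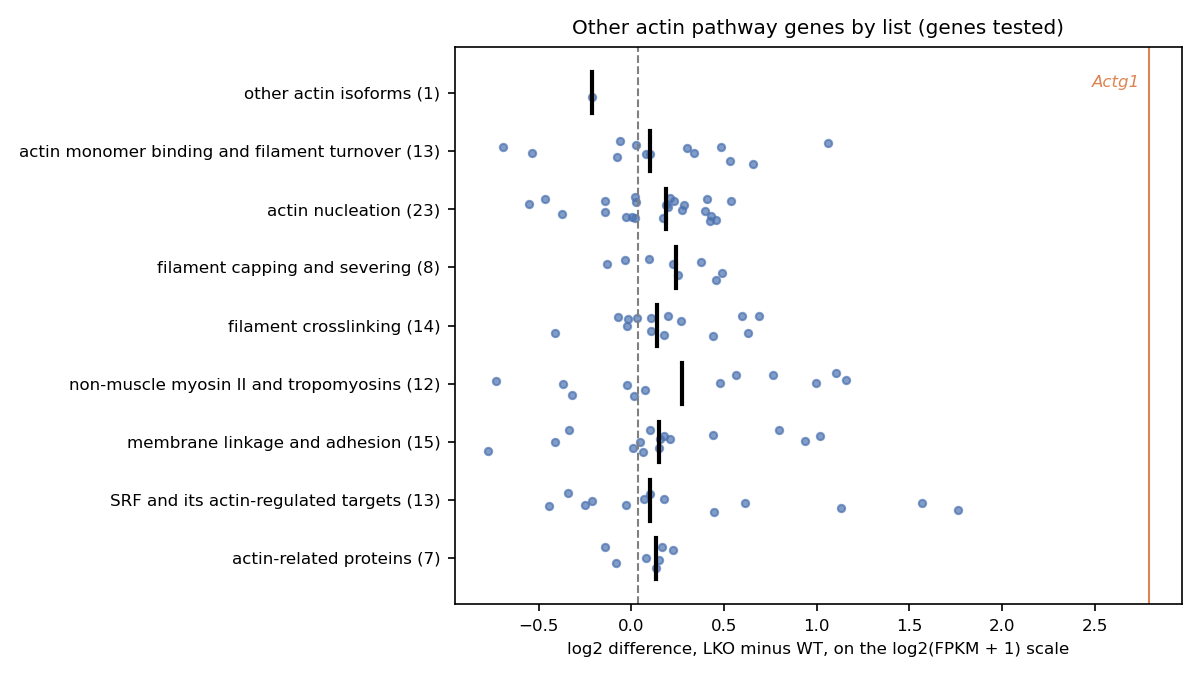
Difference of each tested gene in 9 lists of actin pathway genes, LKO minus WT on the log2(FPKM + 1) scale, with the number tested in brackets, a black bar at each list's median, a dashed line at the median of all tested genes (0.03) and an orange line at Actg1 (2.79). The points lie between -0.77 (Parva) and 1.76 (Egr1), and none of them passed the test in limma.

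Since actin genes are expressed by every liver cell type, markers of other cells were read beside these values. Fewer cells of a type and less RNA per cell cannot be told apart in whole tissue. Stellate cell and fibroblast markers summed to 28.7 to 33.7 FPKM in WT and 27.2 to 39.9 FPKM in LKO (12 of 12 tested, median difference 0.11, and -0.04 without LKO replicate 1). Endothelial markers summed to 42.9 to 63.2 and 26.6 to 72.9 FPKM (10 of 10 below 0, median -0.24). LKO replicate 1 held the highest of these sums and the other 2 LKO libraries 26.6 and 29.1 FPKM, and the median was -0.58 without LKO replicate 1, -0.39 without WT replicate 2 and -0.13 without LKO replicate 2. Kupffer cell and macrophage markers summed to 28.5 to 71.5 and 29.2 to 77.9 FPKM. Smooth muscle markers were near the floor of detection, at 0.537 to 1.04 and 0.244 to 0.942 FPKM summed over 6 genes, and none was tested. Cholangiocyte, mesothelium and platelet sums overlapped between the groups as well, at 10.3 to 18.1 and 7.06 to 28.3 FPKM, 0.168 to 0.260 and 0.0635 to 0.397 FPKM, and 1.60 to 3.06 and 1.39 to 5.06 FPKM.

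In 4 marker lists values moved more with the labels, although the neutrophil sums overlapped between the groups. The skeletal muscle sums came almost wholly from Mylpf, with means of 1.32 FPKM in WT and 0.258 FPKM in LKO, and were near the floor of detection in LKO. Neutrophil markers summed to 0.803 to 3.74 FPKM in WT and 3.27 to 16.2 FPKM in LKO, with Ly6g at 0 in all libraries, 4 of 6 genes tested, all above 0 and 2 at an unadjusted p under 0.05. The LKO sums were below WT for T and NK cell markers (2.15 to 4.17 and 1.22 to 1.97 FPKM, 2 of 7 tested), B and plasma cell markers (1.80 to 2.71 and 0.543 to 1.43 FPKM, 1 of 5 tested) and skeletal muscle markers (0.821 to 1.76 and 0.149 to 0.445 FPKM, 1 of 5 tested, with Acta1, Ckm and Myh4 at 0). In limma 0 genes of the 12 marker lists passed the test, as with voom, and 4 had an unadjusted p under 0.05, 2 higher and 2 lower. Also tested were 8 hepatocyte, 12 stellate cell, 10 endothelial, 10 Kupffer cell, 2 cholangiocyte and 2 platelet markers, with 0 such p among them. Of all tested genes 9.22% had an unadjusted p under 0.05 in limma, so nothing is read from that count. The part of other cell types in the levels of Actg1 and the other members was not tested.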

How the data were processed

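Liver RNA of 3 WT and 3 LKO libraries was analysed. RNA extracted by TRIzol and columns went into NEBNext Ultra libraries at 1 μg, per the labels' protocols. The authors deposited 1 table per library with a single FPKM value per gene identifier, and no scale is stated for them. Named without roles in the submitters' processing notes are the build mm10, featureCounts 1.5.0-p3, DESeq2 1.20.0, HISAT2 2.0.5 and CASAVA. The sources used here do not state annotation release, strand setting or filters, so reads of overlapping antisense genes cannot be told apart.

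Each FPKM times the merged exon length in GENCODE vM21 (54495 identifiers matched) fell on whole reads, within 0.05 read, for 96.1% to 96.4% of values above 0. The library totals these steps imply, 12704132 to 19279635, differ from the sums of reads, so the deposited FPKM appear to include a scaling between libraries. For Cfl1 the products were not whole, and no reads are given. The read floor covers counting error only, while the 95% intervals come from the spread between libraries in the limma fit.

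limma 3.58.1 (R 4.3.3) with trend and robust empirical Bayes was fitted to log2(FPKM + 1) of the 11672 genes averaging 0.5 FPKM or more, with the group as the only term, two-sided, Benjamini-Hochberg adjustment over all of them and a threshold of 0.05. The fit was tested on data simulated with known changes on the log2(FPKM + 1) scale, with noise drawn separately for each library. Folds there are of FPKM + 1, so for low genes they are not folds of FPKM. The fit called 7.04% of 71 genes changed 2-fold, 60.3% of 73 changed 4-fold and 98.2% of 56 changed 16-fold. Of 11472 unchanged genes it called 6. A gene that did not pass may therefore still have changed. Counting error is the Poisson error of the mean reads. Of the 10 pathway lists, 1 is not reported here on its own. Members and lists were chosen with earlier results of these data known, and up to 3 genes per list, those with the smallest p, were named by rule, as were the 8 genes most like Actg1. Alternatives were each library or both replicate 1 libraries left out, a replicate block, a filter at 1 FPKM or none, a pseudocount of 0.1, quantile normalization, scaling to protein-coding nuclear sums, voom on recovered reads, and array quality weights. Motifs and shared 50-base stretches were found with Python 3.11.15 and pandas 2.3.3, and figures were drawn with matplotlib 3.10.9.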

Additional observations from a re-analysis of the deposited data

How the results depend on the processing

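The difference of Actg1 kept its direction and size in all 15 alternatives (2.65 to 2.91), but it passed the threshold in limma in 6 of them. Among the libraries left out in turn, Actg1 passed without LKO replicate 3 alone. Over all genes, 1 was called higher and 4 lower, and 1 member was called. With no filter these counts were 0, 1 and 0. With quantile normalization 0 genes were called higher and 0 members. With both replicate 1 libraries left out 1 gene was called lower and 0 members. Array quality weights called 621 genes higher and 574 lower, and 11 of the 113 pathway genes. Leaving out each library in turn gave 0 to 13 genes higher, 0 to 4 lower and 0 to 1 members, with 13 higher without LKO replicate 3. A fit with the replicate block called 0 genes higher, 0 lower and 0 members. Deviations of same-numbered libraries correlated at 0.49, 0.30 and -0.02, and WT replicates 2 and 3 correlated best with other numbers (0.45 with LKO replicate 3 and 0.04 with LKO replicate 2), so the numbers were not taken as pairs. The cause of these changes was not tested. Sign changes occurred for Tmsb10 (-0.62 to 0.56), Cfl1 (-0.19 to 0.17) and Myl6 (-0.32 to 0.53). Myl9 was at -0.59 with a pseudocount of 0.1 and at -0.68 with voom. Depth limits Myl9 most, with 16 to 42 reads per library.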
